A study of Mus musculus with 4 samples.

Results

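The 10 genes described here encode Oct4 (Pou5f1), Nanog and proteins known to work with them in the core pluripotency network: Sall4, Zfp281, Rif1, Nr0b1, Utf1, Sall1, Lin28a and Trim28. They were taken by name from 19938 genes with 1 symbol on the array, and each of the 10 had 1 probe set. The RNA was that of the mouse embryonic stem cell line E14, hybridised to 4 Affymetrix arrays. A control group of 2 arrays carried a lentiviral shRNA against Luc, and a Usp22 depleted group of 2 arrays carried one against Usp22. Usp22 is the deubiquitinating enzyme of the SAGA coactivator complex. Both groups grew feeder-free on gelatin in 20% FBS and LIF plus 2i, a pair of inhibitors. These were 1 µM PD0325901 against MEK and 3 µM CH99021 against GSK3. The comparison asks how far these genes differed in signal when Usp22 was reduced in cells held in the naive state. The labels do not say that replicates were separate cultures, so the p-values measure only the spread between arrays, which may be technical.

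Oct4 is a POU domain factor that binds DNA beside Sox2, and together with the homeodomain factor Nanog they occupy the enhancers of genes active in pluripotent cells, their own genes included. Sall4 and Sall1 are zinc finger proteins that bind Oct4 or Nanog and recruit the NuRD chromatin remodelling complex. Zfp281 is a zinc finger factor that binds G-rich DNA and restrains Nanog, and Nr0b1 (Dax1) is an orphan nuclear receptor that binds Oct4 and limits its activity. Utf1 is a chromatin-associated protein whose gene is a direct Oct4 and Sox2 target. Rif1 sets replication timing and guards DNA ends, Lin28a blocks maturation of the let-7 microRNAs, and Trim28 (Kap1) silences retrotransposons through heterochromatin.

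Promoter sequence is shown first for 3 of the genes, because Nanog and Pou5f1 read lower and Nr0b1 higher in the depleted cells. Each sequence covers the 250 bases before an annotated start, from RefSeq (GRCm38.p6), printed from 5′ to 3′ on the plus strand, which is the strand of these genes. Of the 10 genes, 8 matched the promoter table, with 12 starts among them, and Sall4 and Rif1 were not matched. Capitals mark the joined Oct and Sox motif in Nanog at chr6:122707239-122707488, a GC box and a nuclear receptor core motif in Pou5f1 at chr17:35505782-35506031, and a nuclear receptor core motif and a TATA box in Nr0b1 at chrX:86191525-86191774.

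Nanog: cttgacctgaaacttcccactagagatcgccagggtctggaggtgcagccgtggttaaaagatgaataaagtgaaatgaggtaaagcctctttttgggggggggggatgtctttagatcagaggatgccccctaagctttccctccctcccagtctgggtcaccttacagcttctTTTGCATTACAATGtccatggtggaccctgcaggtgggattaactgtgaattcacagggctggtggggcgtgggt

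Pou5f1: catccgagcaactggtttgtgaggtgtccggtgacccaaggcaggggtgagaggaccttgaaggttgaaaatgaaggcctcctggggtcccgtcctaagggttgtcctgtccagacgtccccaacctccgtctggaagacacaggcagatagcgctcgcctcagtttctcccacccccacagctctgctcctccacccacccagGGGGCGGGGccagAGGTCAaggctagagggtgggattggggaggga

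Nr0b1: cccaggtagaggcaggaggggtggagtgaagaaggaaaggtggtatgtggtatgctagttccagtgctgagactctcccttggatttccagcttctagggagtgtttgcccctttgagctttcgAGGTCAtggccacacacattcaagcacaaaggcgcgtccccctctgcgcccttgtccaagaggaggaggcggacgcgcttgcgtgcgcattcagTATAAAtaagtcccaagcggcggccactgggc

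The joined motif was searched as CATTGT, any 1 base and then ATGCAAA, on both strands. Of 32851 promoter windows of 250 bases, 2 held it (0.00609%), and both were starts of Nanog, where it began 75 bases before the first start and 151 before the other. The motif was spelled with the known Nanog element in mind, so its place there is a description. The octamer ATGCAAAT stood in 0 of the 12 windows (1.6% of all windows), and the Sox motif CATTGT, which is part of the joined motif, in 4, from Nanog, Pou5f1 and Lin28a (10.7%). The GC box GGGGCGGGG stood in windows of Pou5f1, Utf1 and Zfp281 (10.4% of all windows). The G-rich motif GGGGAGGGG stood in Lin28a and Sall1 (5.75%). The core motif AGGTCA stood in Nanog, Nr0b1 and Pou5f1 (14.0%), and TATAAA in Nr0b1 (12.4%). Genes that read higher and genes that read lower both held the GC box and AGGTCA, and these matches are letters in a window, not measured binding.

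The targeted gene followed the labels. Usp22 signal fell from 9.41 and 9.36 on the control arrays to 8.23 and 8.29 on the depleted arrays (log2 fold change −1.12, limma adjusted p = 0.00826). Embryonic stem cell markers outside the 10 genes lay above background for 9 of 10, with a mean log2 signal from 9.20 to 9.45 per array. Background here is the 95th percentile of mean signals of 1194 olfactory and vomeronasal receptor genes, 6.99 on the log2 scale. Primitive endoderm markers lay above it for 5 of 10, trophectoderm markers for 6 of 10 and fibroblast markers for 4 of 10. Their mean signals ran from 6.93 to 7.04, 7.40 to 7.49 and 6.54 to 6.80 on the control arrays, and from 6.85 to 6.86, 7.24 to 7.27 and 6.54 to 6.55 on the depleted arrays. The part of these shifts in the results below was not tested. In bulk RNA, fewer cells of a type and less RNA per cell cannot be told apart. Control replicate 2 stood apart, with a correlation of 0.88 and 0.91 to the depleted arrays over all genes against 0.95 and 0.97 for control replicate 1. The 2 control arrays correlated at 0.94 with each other and the 2 depleted arrays at 0.98. Control replicate 1 was thus closer to both depleted arrays than to the other control array. Values without control replicate 2 are therefore given for the genes and lists described most closely.

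The 10 genes fell into 2 directions. Pou5f1, Nanog, Sall4 and Trim28 read lower on both depleted arrays than on both control arrays, and Zfp281, Rif1, Nr0b1, Utf1 and Sall1 read higher on both. Lin28a overlapped between the groups. Differences ran from −0.48 to 0.59 on the log2 scale, and 0 genes rose and 0 fell in limma's fit with 1 variance for all genes (Benjamini-Hochberg adjusted p under 0.05). Only Rif1 and Nr0b1, both higher, lay under an unadjusted limma p of 0.05. By that unadjusted rule 3078 of all 19938 genes were higher and 1322 lower. By the adjusted rule 2.62% of all genes rose and 0.105% fell, and 27.4% were higher without overlap and 33.3% lower. The counts of 5 higher and 4 lower among 10 genes are read against those shares, and the median change of the 10 was 0.27 against −0.12 over all genes. Without control replicate 2 these medians were 0.10 and −0.055.

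**Figure D1:**
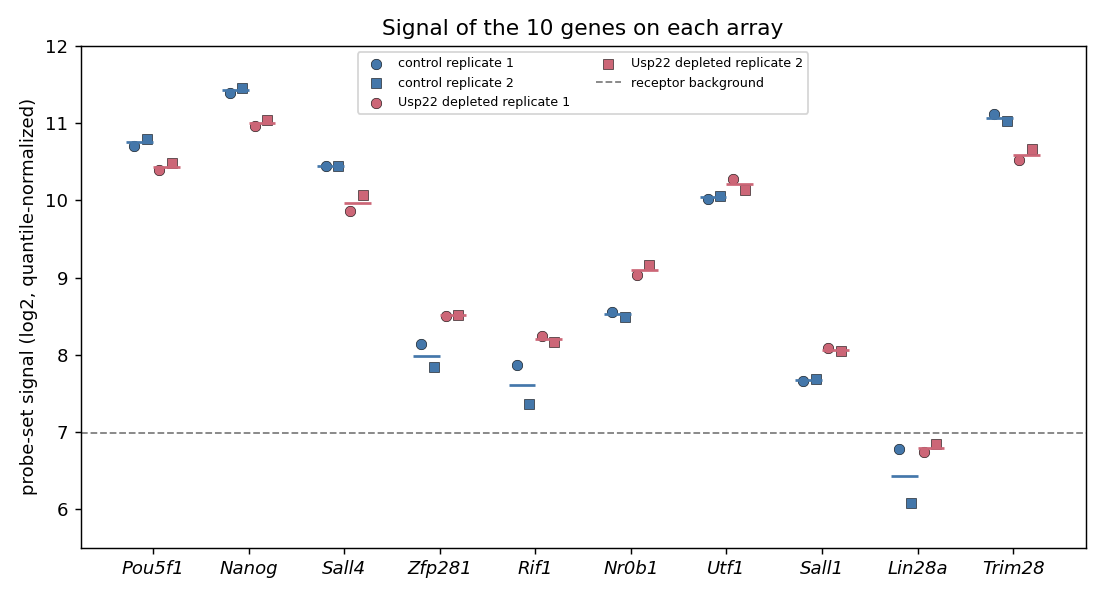
Probe-set signal (log2, quantile-normalized) of each of the 10 genes on the 4 arrays, with short lines at the group means of 2 arrays and a dashed line at the receptor background of 6.99. Pou5f1, Nanog, Sall4 and Trim28 lie lower on both depleted arrays, 5 genes lie higher on both, and Lin28a, whose control arrays lie 0.70 apart, overlaps.

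Oct4 and Nanog, the central factors, both read lower and did not pass the test. Pou5f1 read 10.71 and 10.80 in control cells and 10.39 and 10.48 in depleted cells, 10.75 ± 0.064 against 10.44 ± 0.067 (SD, n = 2 each). The groups did not overlap, and the log2 fold change was −0.31 (95% interval −0.84 to 0.21, limma adjusted p = 0.422). Nanog read 11.39 and 11.46 in control cells and 10.97 and 11.05 in depleted cells. Both depleted arrays were again lower, with a log2 fold change of −0.42 (95% interval −0.94 to 0.11, limma adjusted p = 0.308). Without control replicate 2, Pou5f1 stood at −0.27 and Nanog at −0.38. A further probe set names Pou5f1-rs4, an Oct4-related sequence, which read 8.40 and 8.28 against 7.90 and 8.08 (log2 fold change −0.35). Probes of near-identical copies can bind each other's RNA, so these 2 values are uncertain as separate measurements.

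The SALL factors went opposite ways. Sall4, which binds Oct4 and Nanog, read 10.44 and 10.45 in control cells and 9.86 and 10.06 in depleted cells (log2 fold change −0.48, 95% interval −1.01 to 0.04, limma adjusted p = 0.256). Sall1 read 7.66 and 7.68 in control cells and 8.09 and 8.04 in depleted cells (log2 fold change 0.39, 95% interval −0.13 to 0.92, limma adjusted p = 0.329). In both genes the control arrays nearly coincided, and leaving out control replicate 2 gave −0.48 and 0.40. Measured within each array, Sall1 relative to Sall4 was higher by 0.88 in the depleted group (exact permutation p = 0.333, two-sided, the smallest that 2 arrays against 2 allow). That pair was chosen after its values were seen. The remaining family genes did not pass the test: Sall3 stood at −0.35, or −0.16 without control replicate 2, and Sall2, under the receptor background, at −0.27.

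Nr0b1 and Zfp281, described above as negative regulators, and Utf1, a target gene of Oct4, read higher. Nr0b1 read 8.55 and 8.49 in control cells and 9.03 and 9.16 in depleted cells, 8.52 ± 0.041 against 9.10 ± 0.095 (SD, n = 2 each). Its groups lay apart by more than the spread within either, at a log2 fold change of 0.58 (95% interval 0.05 to 1.10, limma adjusted p = 0.191), and it stood at 0.55 without control replicate 2. Zfp281 read 8.13 and 7.84 in control cells and 8.502 and 8.513 in depleted cells (log2 fold change 0.52, limma adjusted p = 0.230). Its lower control array was replicate 2, and without that array the difference was 0.38. Utf1 read 10.02 and 10.05 against 10.27 and 10.14 (log2 fold change 0.17, 95% interval −0.36 to 0.69, limma adjusted p = 0.659), the smallest difference of the 10, and at 0.19 without control replicate 2.

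The genes of chromosome maintenance, silencing and RNA binding differed most in how far single arrays set their values. Rif1 read 7.86 and 7.36 in control cells and 8.24 and 8.17 in depleted cells (log2 fold change 0.59, limma adjusted p = 0.180). Its control arrays lay 0.50 apart, and the difference was 0.34 when control replicate 2 was left out and 0.84 when replicate 1 was. Trim28 read 11.12 and 11.03 in control cells and 10.52 and 10.66 in depleted cells (log2 fold change −0.48, 95% interval −1.01 to 0.04, limma adjusted p = 0.257), and −0.53 without control replicate 2. Lin28a lay under the receptor background in its mean over the 4 arrays, at 6.61. It read 6.77 and 6.07 in control cells and 6.75 and 6.84 in depleted cells (log2 fold change 0.37, limma adjusted p = 0.357). Only control replicate 2 set it apart, and the difference was 0.018 without that array and 0.72 when control replicate 1 was left out instead.

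Without control replicate 1, Zfp281, Rif1, Nr0b1 and Lin28a passed the test (limma adjusted p = 0.0180, 0.00428, 0.0293 and 0.0118), where 24.5% of all genes were called higher. Such a fit leaves 1 array in a group, so no conclusion about the 10 genes is drawn from its calls. Calls with either depleted array left out are not given here for that reason. The sign of each gene was the same in all 4 fits with 1 array left out, as it must be for genes without overlap. Lin28a, the gene with overlap, also kept its sign.

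**Figure D2:**
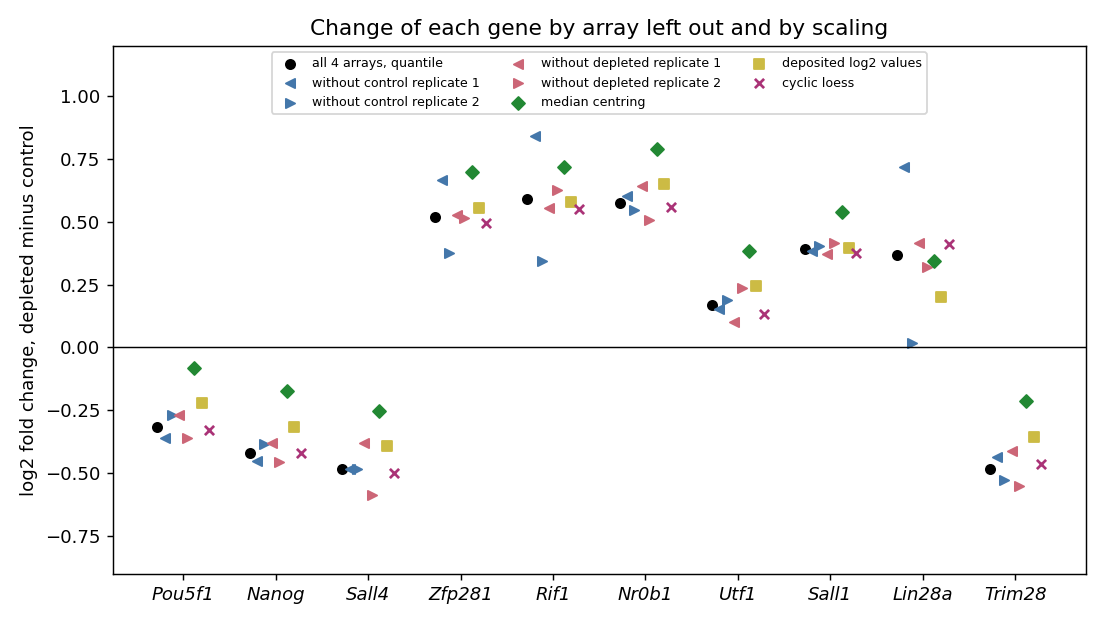
Log2 fold change (depleted minus control) of each of the 10 genes with all 4 arrays, with each array left out in turn, and under other scalings. Rif1 ranges from 0.34 to 0.84 and Lin28a from 0.018 to 0.72 as arrays are left out, Sall1 from 0.37 to 0.41, and median centring moves Pou5f1 from −0.31 to −0.08.

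The variance model decided whether the lower genes passed. In the fit above all genes share a standard error of 0.27, although bright probe sets varied less between arrays: the median standard error with an intensity trend was 0.11 at a mean log2 signal of at least 10 and 0.32 under the receptor background. With limma's intensity trend and robust prior the standard error was 0.093 for Nanog, 0.10 for Trim28, 0.11 for Pou5f1 and 0.12 for Sall4, and 0.32 for Lin28a. In that fit Trim28, Nanog and Sall4 fell (limma adjusted p = 0.00144, 0.00257 and 0.0116), while Pou5f1 (0.0741) and Nr0b1 (0.0579) did not pass. Not all of these calls held with 1 array left out. Such a fit leaves 1 array in a group, and calls over all genes changed widely too, so only changes are given. As arrays were left out, Nanog ran from −0.46 to −0.38, Sall4 from −0.59 to −0.38, Trim28 from −0.55 to −0.41 and Nr0b1 from 0.51 to 0.64. With all 4 arrays, the fit with trend and robust prior called 1.91% of all genes higher and 1.70% lower. Among 553 genes with a mean log2 signal of at least 10 it called 3.25% higher and 18.3% lower. Of the 10 genes, 5 were among those 553, and 3 of them fell, so the calls stand among many in bright genes. The same fit on values centred on each array's median called none of these genes lower and Nr0b1 higher (limma adjusted p = 0.0439), and on the deposited log2 values it called 0 of the 10. With cyclic loess scaling it called 4 lower, Pou5f1 included (limma adjusted p = 0.0348), and Nr0b1 higher (0.0234). Over all genes that fit called 607 higher and 8 lower after median centring and 88 and 23 on the deposited values. With cyclic loess it called 1122 and 818, against 381 and 339 after quantile normalization.

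**Figure D3:**
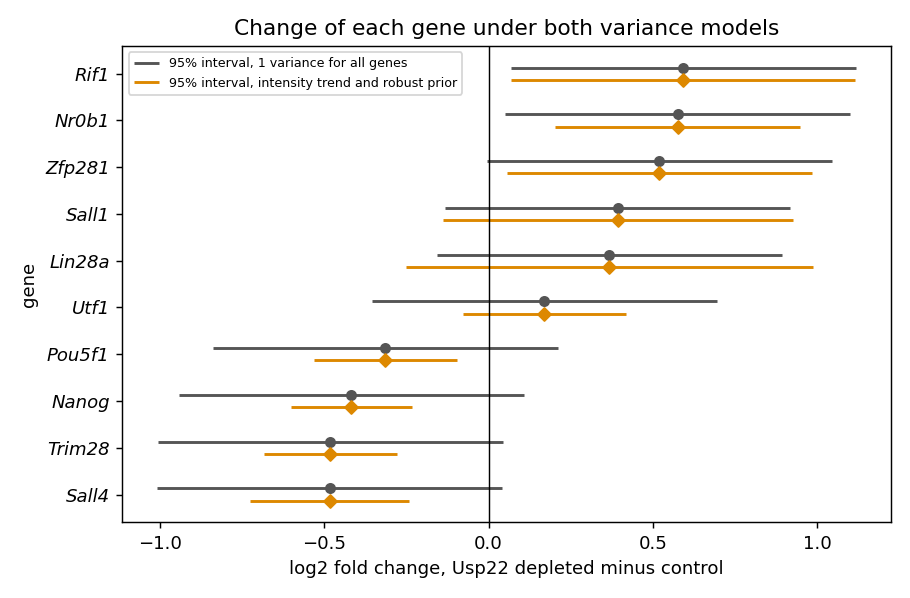
Log2 fold change of each of the 10 genes with 95% intervals from limma with 1 variance for all genes (grey) and with the intensity trend and robust prior (orange), before adjustment for multiple tests. The orange intervals are narrower for Pou5f1, Nanog, Trim28 and Sall4, at standard errors from 0.093 to 0.12, than the grey ones at 0.27.

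The size of the changes depended on the scaling. The median of all genes was −0.12 after quantile normalization, −0.24 on the deposited log2 values, −0.09 after median centring and −0.09 after cyclic loess. With median centring Pou5f1 stood at −0.08, Nanog at −0.17, Trim28 at −0.21 and Sall4 at −0.25, and Nr0b1 at 0.79, Rif1 at 0.72 and Zfp281 at 0.70. The 553 genes with a mean signal of at least 10 had a median of −0.03 after quantile normalization and 0.22 after median centring, so the lower readings of Pou5f1, Nanog, Sall4 and Trim28 lay below those medians in both. All 10 genes kept their sign under each of the scalings run.

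Differences between genes within an array do not depend on a shift common to that array. Set against Pou5f1 on the same array, Nr0b1 was at −2.16 and −2.31 in controls and −1.36 and −1.32 in depleted cells, a change of 0.89. These levels compare different probe sets and have no meaning alone, and only their change does. Relative to Pou5f1, Rif1 changed by 0.91, Zfp281 by 0.83, Sall1 by 0.71, Lin28a by 0.68 and Utf1 by 0.48. Trim28, Sall4 and Nanog changed by −0.17, −0.17 and −0.10. All 9 differences were without overlap between the groups, each with an exact permutation p of 0.333 (two-sided, the smallest possible; 9 comparisons, adjusted p-values also 0.333). For Zfp281, Rif1, Nr0b1, Utf1 and Sall1 this was fixed in advance, because they read higher and Pou5f1 lower on both depleted arrays. The share of all genes without overlap relative to Pou5f1 was not computed, so no conclusion is drawn from this count. Without control replicate 2, Lin28a moved to 0.29 and Rif1 to 0.61 on this measure. The values of Trim28 were −0.077 without control replicate 1 and −0.26 without replicate 2, and those of Nanog −0.090 and −0.12.

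The changes of the 10 genes were set beside those of the whole array. Of 9736 genes above the receptor background, 42.7% were lower by at least 0.2 on the log2 scale, 40.0% were higher by at least that much and 17.3% lay between, so fewer of these genes lay near 0 than on either side of it. Among the 9 members above background, 4 were lower by at least 0.2, 4 higher and 1, Utf1, between. Between the 2 control arrays 42.4% of these genes were lower on replicate 2 by at least 0.2, 27.4% higher and 30.2% between. Between the 2 depleted arrays 67.4% lay between, with 13.1% lower and 19.5% higher on replicate 2. Between those control arrays 7 of the 9 members differed by less than 0.2, and Rif1 and Zfp281 were lower on replicate 2 by more. The cause of this distribution was not tested.

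**Figure D4:**
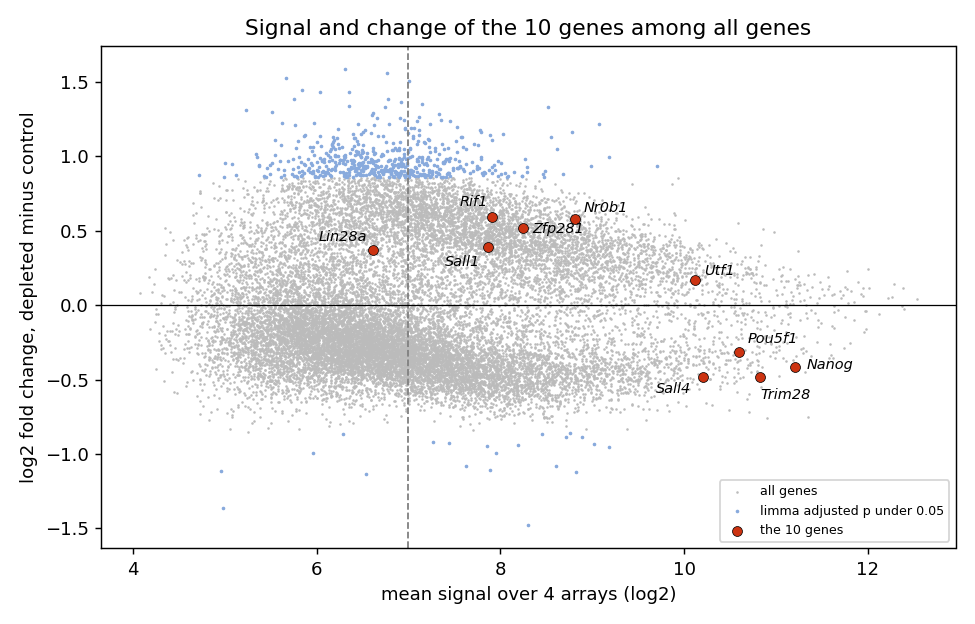
Mean log2 signal over 4 arrays against log2 fold change for 19938 genes (grey), genes called by limma (blue) and the 10 genes (red, labelled); the dashed line is the receptor background of 6.99. To the right of that line, 42.7% of genes lie at or below −0.2 and 40.0% at or above 0.2, Pou5f1, Nanog, Sall4 and Trim28 among the former and Nr0b1, Rif1, Zfp281 and Sall1 among the latter.

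Other genes of the network were followed in lists chosen by function. In the fit with 1 variance, 0 rose and 0 fell among 15 measured core regulators, 17 Oct4 interactors, 14 NuRD subunits, 18 heterochromatin partners of Trim28, 12 Rif1 partners, 11 nuclear receptors, 10 POU genes and 2 SALL genes. At an unadjusted limma p under 0.05 these lists held, higher and lower, 2 and 3 genes, 0 and 1, 0 and 1, 1 and 1, 1 and 1, 0 and 1, 2 and 1, and 0 and 0, in that order. By that unadjusted rule 3078 of all 19938 genes were higher and 1322 lower. The fit with 1 variance called 2.62% of all genes higher and 0.105% lower. The counts without overlap below stand against 27.4% higher and 33.3% lower over all genes, and no list was tested against them. Sox2, the DNA-binding partner of Oct4, read 9.36 and 9.04 against 9.90 and 9.68 (log2 fold change 0.59, limma adjusted p = 0.182), in the direction opposite to Pou5f1 and Nanog, and stood at 0.43 without control replicate 2. Of the 15 core regulators 6 were higher and 6 lower without overlap, against 27.4% and 33.3% of all genes, and their median of −0.11 turned to 0.10 without control replicate 1. With the intensity trend and robust prior Tbx3, Klf4 and Tfcp2l1 fell (log2 fold change −0.67, −0.64 and −0.58) and Sox2 and Klf5, a Klf factor named after its value was seen (0.55), rose. Other scalings were not run with the trend and robust prior for partner genes, whose calls in that fit are given on quantile-normalized values. Those calls, here and below, stand against 1.91% of all genes called higher and 1.7% lower. Among the 553 genes with a mean log2 signal of at least 10 the shares were 3.25% and 18.3%.

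Of 14 measured NuRD subunits, 7 were lower and 3 higher without overlap, against 33.3% and 27.4% of all genes, with a median of −0.23 against −0.12 over all genes. The helicase genes Chd3 (−0.62, or −0.42 without control replicate 2) and Chd4 (−0.44) and the scaffold gene Gatad2a (−0.52) fell with the trend and robust prior, and the deacetylase gene Hdac2 rose (0.50; limma adjusted p from 0.0160 to 0.0482). Oct4 interactors had 10 of 17 lower and 3 higher without overlap, against the same shares of all genes, and a median of −0.27. Nacc1, a BTB domain partner of Nanog and Oct4, read 11.06 and 10.95 against 10.30 and 10.44 and fell in that fit (−0.63, limma adjusted p = 7.67e-06).

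Among the heterochromatin partners of Trim28, 7 of 18 were higher and 6 lower without overlap, against 27.4% and 33.3% of all genes. Their median was 0.12, and 0.012 without control replicate 2. Zfp57, the KRAB zinc finger protein that brings Trim28 to imprinted loci, read 11.11 and 11.12 in control cells and 10.54 and 10.58 in depleted cells. It fell with the trend and robust prior (−0.55, limma adjusted p = 0.000106), as did the HP1 gene Cbx5 (−0.45, limma adjusted p = 0.0335). The other HP1 genes went the other way and were not called. Cbx3, read from the brightest of its 7 probe sets, stood at 0.45, higher without overlap (limma adjusted p = 0.0560 in that fit), and Cbx1 at 0.24 with overlap. Without control replicate 2 they stood at 0.34 and −0.019. The Trim28 relative Trim33 stood at 0.84 (limma adjusted p = 0.0550 with 1 variance), and at 0.36 without control replicate 2. The Rif1 partners had 7 of 12 higher and 1 lower without overlap, against 27.4% and 33.3% of all genes (median 0.30, and 0.17 without control replicate 2), with the helicase gene Blm at 0.54 and the telomere genes Pot1a at 0.50, or 0.33 without that array, and Terf2 at −0.57.

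In the target gene list 1 of 13 rose in the fit with 1 variance and 0 fell, against 2.62% and 0.105% of all genes. The gene that rose was Lefty1, a Nodal antagonist with Oct4 and Sox2 sites near its gene. Lefty1 read 8.18 and 8.21 against 9.35 and 9.36 (log2 fold change 1.17, limma adjusted p = 0.00603). It ran from 1.15 to 1.18 as arrays were left out, in fits with 1 array in a group from which no calls are given. Zic2, Fgf4 and Gdf3 stood at 0.63, 0.38 and 0.37, and 6 of the 13 genes were higher and 1 lower without overlap, against 27.4% and 33.3% of all genes. The median of the list was 0.19, and 0.072 without control replicate 2. Among nuclear receptors 0 of 11 were higher and 6 lower without overlap, against the same shares of all genes (median −0.25), and 5 of the 11 lay above the receptor background. Esrra stood at −0.55, or −0.30 without depleted replicate 1, and Nr5a1, under that background, at −0.44. Nr6a1 went the other way at 0.45, with groups that overlapped, and stood at −0.026 without control replicate 2. In the POU family Pou2f3 stood at 0.83 (0.35 without control replicate 2) and Pou2f2 at −0.67 (−0.35 without it). The median of the 10 POU genes moved from −0.16 to 0.0069 without that array, and 4 of them were above background. Pou3f1 read 10.91 and 10.89 against 10.33 and 10.66 and fell with the trend and robust prior (−0.40, limma adjusted p = 0.0158). It stood at −0.24 without depleted replicate 1 and is named after its value was seen.

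The let-7 microRNAs, which Lin28a holds back, are shown because Hmga2, a classical let-7 target, was the 1 gene of 15 in the Lin28 and let-7 list that rose in the fit with 1 variance, with 0 that fell. That fit called 2.62% of all genes higher and 0.105% lower. In the RefSeq table (GRCm38.p6) all 8 mature 5p forms of the family share the seed at bases 2 to 8, marked by capitals in let-7a and let-7g.

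mmu-let-7a-5p: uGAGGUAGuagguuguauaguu

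mmu-let-7g-5p: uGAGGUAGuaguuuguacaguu

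Lin28 proteins bind a GGAG motif in the loop of let-7 precursors, and 9 of 11 let-7 hairpins in the table held these letters. The let-7g hairpin shows them in capitals.

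let-7g hairpin: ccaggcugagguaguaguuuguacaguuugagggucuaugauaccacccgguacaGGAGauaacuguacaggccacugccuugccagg

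The log2 fold change of Hmga2, an architectural chromatin protein gene, was 1.03 (limma adjusted p = 0.0173). It read 6.14 and 6.81 in control cells and 7.77 and 7.24 in depleted cells. It stood at 0.70 without control replicate 1 and 1.37 without replicate 2. Without depleted replicate 1 it stood at 0.77, and without depleted replicate 2 at 1.30. It lay at the receptor background in its mean of 6.99, and was not called on the deposited log2 values (limma adjusted p = 0.0774). Igf2bp1, an RNA-binding protein gene and let-7 target, fell with the trend and robust prior (−0.53, limma adjusted p = 0.00577). The uridylase gene Tut7 stood at 0.53 and the Argonaute gene Ago1 at 0.63, or 0.29 and 0.35 without control replicate 2. Ago2 at −0.41, and Dicer1 at −0.41 and Dgcr8 at −0.43, which process microRNA precursors, were lower without overlap and are named after their values were seen. In the same list Drosha went the other way, higher without overlap at 0.31, or 0.17 without control replicate 2. Xpo5 stood at 0.10 with overlap. Of the 15 genes 7 were higher and 5 lower without overlap, against 27.4% and 33.3% of all genes, and the median of the list moved from 0.31 to −0.08 without that array. Mature microRNAs were not measured.

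**Figure D5:**
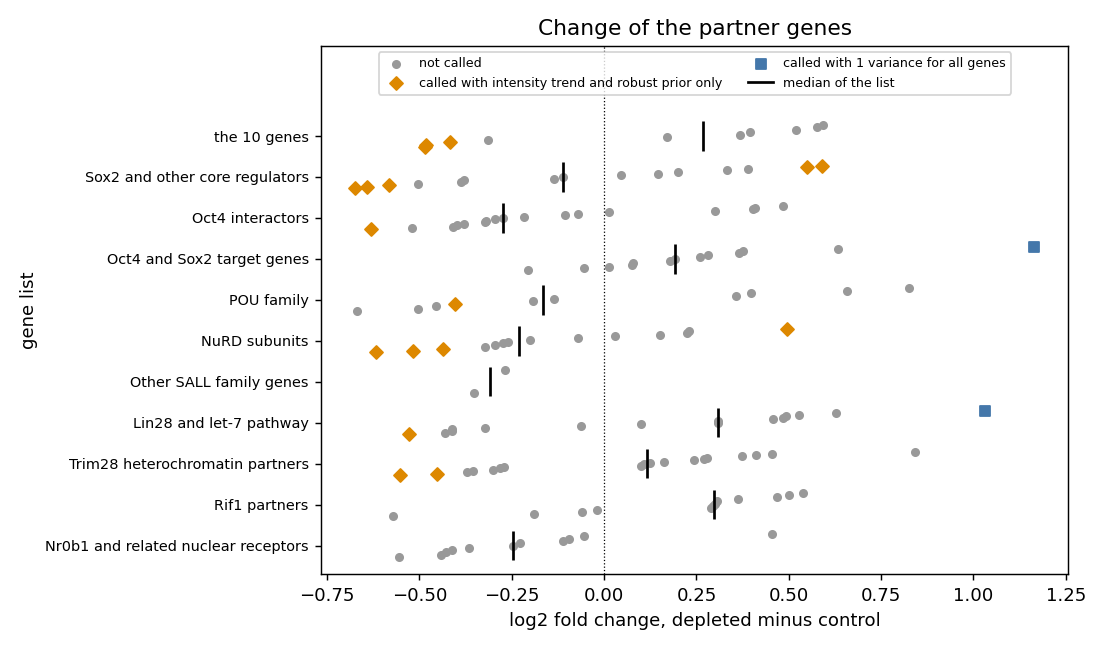
Log2 fold change (depleted minus control) of each measured gene in the 10 genes and 10 lists of partners; blue squares passed limma with 1 variance, orange diamonds passed only with the intensity trend and robust prior, and black lines are list medians. Lefty1 at 1.17 and Hmga2 at 1.03 are the blue squares, and the 3 diamonds of the 10 genes are Nanog, Trim28 and Sall4.

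By distance between centred log2 values over the 4 arrays, the genes nearest to Pou5f1 among 9735 above background were Poll (0.017), Mrpl58 (0.020) and Sfpq (0.024). Those nearest to Nanog were Nisch (0.0064), Crebbp (0.0070) and Ewsr1 (0.016). With 4 arrays many genes share such a pattern.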

How the data were processed

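The authors deposited 1 linear intensity per probe set and array in a table of 28856 probe sets. Biotin-labelled cDNA was hybridised, per the labels' protocols. How they were summarised and normalized is not given in the sources used here. Quantile normalization between arrays followed a log2 transform. GEO's platform annotation, which can be old, gave 1 symbol to 21789 probe sets, and the brightest was kept per gene (19938 genes). Groups came from the titles. The test was limma's (version 3.58.1, R 4.3.3; lmFit, eBayes, two-sided, Benjamini-Hochberg adjustment over all genes, 2 residual degrees of freedom). The procedure was checked on simulated arrays with known changes and the same noise for all genes. That check cannot say how the procedure performs where noise differs with signal. The number of arrays limits the precision. The members and lists were chosen with earlier results of these data known. Named genes were the 10 members, Usp22, Sox2, up to 4 genes of each list with the lowest p, and the 3 nearest patterns to Pou5f1 and Nanog. Alternatives covered scaling, pseudocount, probe-set averaging, variance priors, dim genes, a replicate block and each array left out. Cyclic loess, the receptor background as a filter, and combinations with the trend and robust prior were chosen after seeing the data.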

Additional observations from a re-analysis of the deposited data

How the results depend on the processing

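All 10 members kept their sign under the 16 alternatives run for each (14 for Lin28a, which 2 filters removed). With the intensity trend, alone or with the robust prior, Nanog (−0.42), Sall4 (−0.48) and Trim28 (−0.48) passed, so 3 members fell in place of 0. With trend and robust prior together, 0 members fell after median centring or on deposited values, and 1 rose after median centring or cyclic loess. Leaving out 1 array gave 0 to 4 members that fell and 0 to 4 that rose in that fit, and 0 to 4 that rose with 1 variance. Each such fit leaves 1 array in a group, and its calls over all genes changed widely too. No conclusion about the members is therefore drawn from these counts. The range over all genes given below for 1 array left out is that of the fit with 1 variance. As arrays were left out, Zfp281 ran from 0.38 to 0.66, Rif1 from 0.34 to 0.84, Nr0b1 from 0.51 to 0.64, Lin28a from 0.018 to 0.72 and Usp22 from −1.15 to −1.09. The members' median ran from 0.10 to 0.28, and was 0.36 with median centring and 0.17 with the dimmer genes or those under the receptor background left out. Sall1 relative to Pou5f1 moved to 0.62 with median centring and on deposited values. Of other named genes, Nr6a1 reversed, from 0.45 to −0.026 without control replicate 2 (−0.026 to 0.93 as arrays were left out). Over the array, all genes that rose and all genes that fell numbered 523 and 21, 927 and 20 with median centring, 75 and 10 on deposited values, 972 and 37 with cyclic loess, 326 and 286 with the trend, 295 and 11 with the robust prior, and 381 and 339 with both. Counts that fell were 47 with the pseudocount of 16, 36 and 148 with the dimmest 25% and 50% of genes left out, and 149 above the receptor background. Leaving out 1 array gave 0 to 4884 that rose and 0 to 4236 that fell. The replicate number as a block gave 856 and 42, with 0 members called and 3 that fell with trend and robust prior. The labels do not say that a number marks a shared culture, and same-numbered deviations correlated at 0.10 over genes. Causes of these changes were not tested. The lone array of a group was assumed to vary like the other group. Lin28a, under the receptor background, is limited by its signal.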

Other observations

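The array also carried probe sets at 9 let-7 hairpin loci, looked at after the values of Lin28a were seen. Of the 9, 0 passed limma with 1 variance (adjusted p under 0.05) and 1, Mirlet7g, lay under an unadjusted p of 0.05. Over all 19938 genes the adjusted rule called 2.62% higher and 0.105% lower, and the unadjusted rule 3078 higher and 1322 lower. Mirlet7g read 6.06 and 5.46 in control cells and 6.62 and 6.19 in depleted cells (log2 fold change 0.64), and stood at 0.34 without control replicate 2 and 0.94 without replicate 1. Mirlet7e read 6.43 and 6.45 against 5.98 and 6.03 (−0.43). Mirlet7a-1 and Mirlet7i stood at −0.43 each. Each of the 9 loci lay under the receptor background of 6.99 in its mean over all arrays, Mirlet7a-1 at 6.89 and Mirlet7i at 6.92. Only these exceeded it in the control mean, at 7.11 and 7.13, against depleted means of 6.68 and 6.71.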
